A study of Rattus norvegicus with 58 samples.

Results

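Livers of 46 heterogeneous stock (HS) rats were ranked by their own level of Mx2 transcript, and the 12 livers with the highest level were compared with the 12 livers with the lowest level across all other transcripts on the array. These 24 arrays came from a series of 58. The livers were chosen by the log2 value of 1 Mx2 probe set, the brighter of the pair that carry Mx2 as their only symbol. The series profiled HS rats classed as glucose-intolerant (23 livers) or with normal glucose tolerance (23 livers), plus 2 livers each from WKY, BUF, M520, F344, BN and ACI inbred rats. HS rats are outbred animals bred from several inbred founder strains, so each liver carries its own mixture of founder alleles. All animals were males of 17 weeks, housed in pairs and fasted overnight, the liver was frozen at once, and each liver gave 1 Affymetrix rat array. No treatment, infection or transgene is named in the labels, cage mates are not named, and nothing in the labels separates the high Mx2 from the low Mx2 animals. The high Mx2 livers came from 6 glucose-intolerant and 6 glucose-normal rats, and the low Mx2 livers from 5 glucose-intolerant and 7 glucose-normal rats (Fisher's exact test, two-sided, p = 1.0). The 22 livers between them came from 12 glucose-intolerant and 10 glucose-normal rats.

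Mx proteins are dynamin-like GTPases that block virus replication inside cells, and their genes are transcribed mainly when interferon signals. Type I interferons bind the receptor chains IFNAR1 and IFNAR2, the kinases JAK1 and TYK2 are activated, and a factor that contains IRF9 binds a short repeat, the interferon-stimulated response element, before the genes it switches on. Those genes encode the Mx and 2'-5' oligoadenylate synthetase effectors, the ubiquitin-like protein ISG15 with its conjugating enzymes, and IRF7, which raises further interferon output. In liver, hepatocytes as well as Kupffer and endothelial cells can respond.

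The Mx2 levels that chose the livers are given as a description. The ranking probe set read between 7.69 and 8.60 with a median of 7.92 in the high Mx2 livers, against 5.91 to 6.63 with a median of 6.57 in the low Mx2 livers, in log2 units. The means were 8.0 ± 0.28 in high Mx2 livers and 6.45 ± 0.21 in low Mx2 livers (SD, n = 12 each), a gap of 1.55 log2 units or 2.93-fold. Levels fell in a continuous slope with no clear break: the 12th liver from the top stood at 7.69 and the 13th at 7.55, while the 34th stood at 6.68 and the 35th, the first low Mx2 liver, at 6.63. The highest value belonged to glucose-normal rat HS29 at 8.60 and the lowest to glucose-normal rat HS8 at 5.91. Mx2 averaged 7.20 ± 0.54 in glucose-intolerant livers and 7.17 ± 0.72 in glucose-normal livers (SD, n = 23 each), a difference of 0.03 with an adjusted p of 0.975 in limma.

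**Figure D1:**
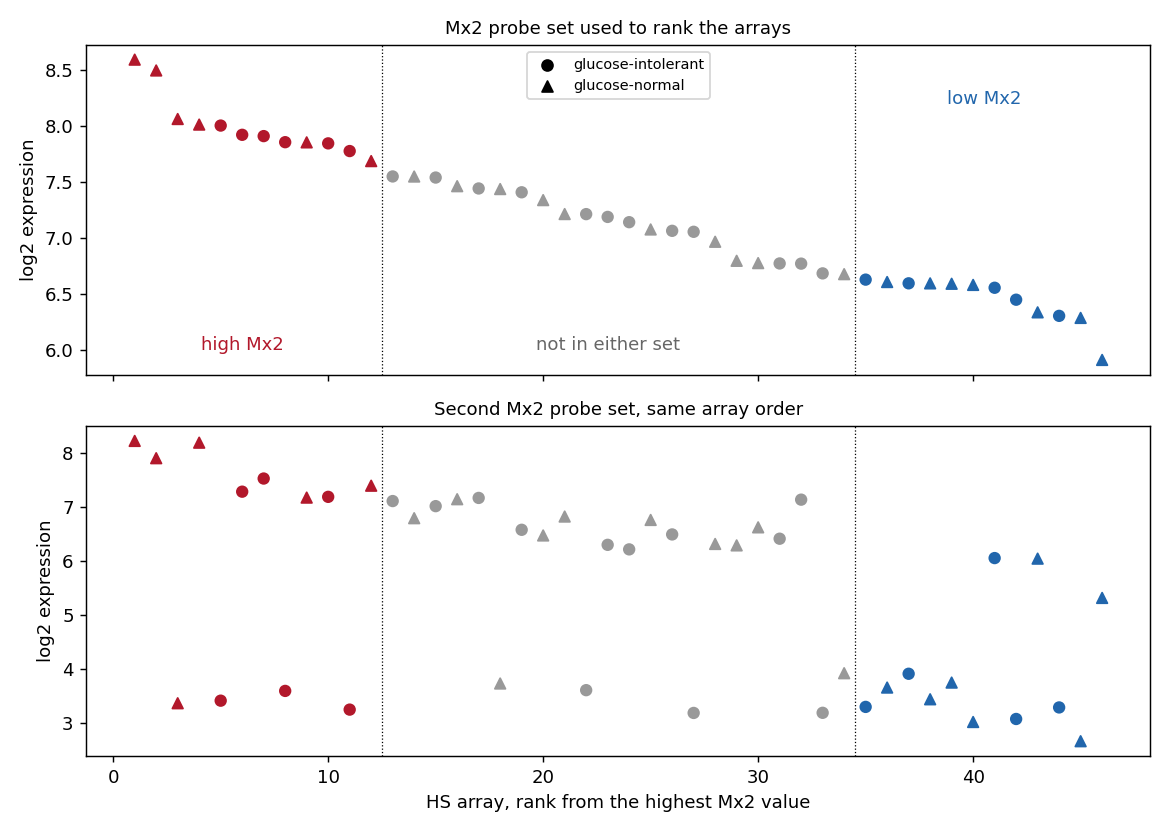
Log2 expression of the ranking Mx2 probe set (upper panel) and of the second Mx2 probe set (lower panel) in the 46 HS livers, ordered along the x axis from the highest ranking value; red marks the 12 high, grey the 22 intermediate and blue the 12 low Mx2 livers, circles glucose-intolerant and triangles glucose-normal rats. The ranking probe set falls from 8.60 to 5.91 with no clear break at either cut, while the second probe set splits the livers into a group from 5.31 upward and a group up to 3.92.

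A second Mx2 probe set split the livers into separate groups. It read between 5.31 and 8.23 in 28 HS livers and between 2.65 and 3.92 in the other 18, with an empty gap of 1.40 log2 units between them. The upper group held 8 high Mx2, 3 low Mx2 and 17 intermediate livers, and the lower group held 4 high Mx2, 9 low Mx2 and 5 intermediate livers. The 4 high Mx2 livers in the lower group were glucose-normal HS16 at 3.36 and glucose-intolerant HS23, HS43 and HS31 at 3.41, 3.59 and 3.24. Their values on the ranking probe set were 8.06, 8.01, 7.86 and 7.78. The 3 low Mx2 livers in the upper group were glucose-intolerant HS11 at 6.05 and glucose-normal HS21 and HS8 at 6.04 and 5.31. The groups were cut at the widest gap in the second probe set's own values. Because the livers fell into separate groups, the relation between the probe sets was computed inside each group. It was tight within the 28 livers (Pearson r = 0.896, Spearman rho = 0.873, permutation p = 2e-05 for both, the smallest the permutations can give, 4e-05 after adjustment over the relations computed), and r was 0.839 without the 2 livers farthest from the median. Within the 18 livers r was 0.184 (permutation p = 0.464) and rho 0.273 (permutation p = 0.266). In these 18 livers the second probe set was dim, below the array medians of 5.33 to 5.39. Whether low signal weakened the relation was not tested. The part of the Mx2 transcript that each probe set reads was not tested here. Both probe sets carry the symbol Mx2 and 1 of them chose the livers, so their relation is no support for the calls below.

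Among the other probe sets on the array, 28 were higher and 2 were lower in the high Mx2 livers, which is 0.0902% and 0.00644% of the 31040 tested (limma, Benjamini-Hochberg adjusted p under 0.05). The 28 higher probe sets carried 23 gene symbols, and 2 of them carried none. With each gene represented by its brightest probe set, 22 of 14216 genes were higher, or 0.155%, and 1 was lower, or 0.00703%. Of the 22 genes, 17 belong to the interferon and class I histocompatibility lists described further on, which hold 112 of the 14216 genes. Those lists were chosen with earlier results of these data known. The livers were sorted by a measured transcript, so the test asks which other transcripts varied with Mx2 and is no test of an exposure. The median gene differed by 0.01 log2 units, and 93.8% of probe sets had a 95% confidence interval that lay inside ±0.5 log2 units. Ranking the livers by the second Mx2 probe set instead gave 1 higher call and none of the 28. The low side of that ranking lay wholly in the group reading 2.65 to 3.92, below the array medians of 5.33 to 5.39. The order of livers within it rests on dim readings. That side also held HS16, HS23, HS31 and HS43, which are high Mx2 livers by the ranking probe set. Why none of the 28 passed there was not tested. With 8 livers a side by the ranking probe set there were 15 higher calls, 14 of them among the 28. In whole liver, more cells of an expressing type and more RNA per cell cannot be told apart.

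The transcription factors and sensors of the pathway were led by Irf7, the factor that amplifies interferon production. Irf7 read 8.13 to 9.22 with a median of 8.60 in high Mx2 livers, against 6.81 to 7.85 with a median of 7.51 in low Mx2 livers. No liver of one side reached the range of the other. Its means were 8.64 ± 0.32 and 7.54 ± 0.30 in high and low Mx2 livers (SD, n = 12 each), a difference of 1.11 ± 0.12 (SE) log2 units or 2.15-fold (limma adjusted p = 1.47e-05). Irf9, the DNA-binding subunit of the interferon-activated factor, read 7.86 to 8.40 in high Mx2 livers and 7.23 to 7.90 in low Mx2 livers, and it was 0.55 log2 units higher (adjusted p = 0.000549). A second Irf9 probe set gave 0.50 (adjusted p = 0.0173). Dhx58, the regulatory RNA helicase LGP2, was 0.27 higher with an adjusted p of 0.0483, and 2 other Dhx58 probe sets gave 0.36 and 0.26 without passing. The call for Dhx58 was lost when single livers were left out, with an adjusted p of up to 0.119.

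The receptors and kinases upstream did not pass the test. Ifnar1 differed by 0.04, Ifnar2 by 0.20, Jak1 by -0.01 and Tyk2 by 0.03 log2 units between high and low Mx2 livers. Stat2 differed by 0.33 (limma adjusted p = 0.694). The sensor Ifih1 differed by -0.02, its adaptor Mavs by 0.02, Sting1 by 0.12 and the RNA receptor Tlr7 by 0.35 (adjusted p = 0.351). Irf1 and Irf3, other members of the interferon regulatory factor family, differed by 0.04 and 0.12. Over all 18 genes measured here on the signalling and sensor list, 3 were higher, none was lower and 16 had the higher mean in high Mx2 livers. Their median difference was 0.12. Among all genes, 0.155% were called higher, 53.0% had the higher mean and the median was 0.01.

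The antiviral effectors were led by Mx1, a close relative of Mx2. Mx1 read 5.33 to 6.89 with a median of 6.01 in high Mx2 livers, against 3.91 to 5.30 with a median of 4.78 in low Mx2 livers. The ranges met without overlapping. The means were 5.98 ± 0.51 in high and 4.72 ± 0.44 in low Mx2 livers, a difference of 1.26 ± 0.18 (SE) or 2.40-fold (limma adjusted p = 0.000549). Mx1 and Mx2 are related in sequence, and whether either probe set also reads the other transcript was not tested.

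Oligoadenylate synthetases that are active as enzymes make the second messenger that activates RNase L. Not every family member is active, and activity was not measured for the genes given here. Oas1a read 7.43 to 8.60 in high Mx2 livers and 6.23 to 7.88 in low Mx2 livers, so the upper low Mx2 livers overlapped the lower high Mx2 ones, and it was 1.20 ± 0.16 (SE) log2 units higher (adjusted p = 0.000512). Oas1b was dimmer, at 4.25 to 5.60 in high Mx2 livers and 3.58 to 4.49 in low Mx2 livers, and was 0.99 higher (adjusted p = 0.000549). Oasl was 0.64 higher (adjusted p = 0.000449). Oas1a and Oas1b are close copies, and how far their probe sets are separate was not tested.

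Most other effectors did not pass between the extremes. Ifit3 differed by 0.65, with means of 4.92 ± 0.53 in high and 4.27 ± 0.23 in low Mx2 livers (limma adjusted p = 0.187). Rsad2, which encodes viperin, differed by 0.54 (adjusted p = 0.203), Ifitm3 by 0.58 (adjusted p = 0.634), the RNA-editing enzyme Adar by 0.30 (adjusted p = 0.205) and Mov10 by 0.32 (adjusted p = 0.453). When Mx2 entered as a continuous value over all 46 HS livers, Ifit3 (adjusted p = 0.00559), Rsad2 (adjusted p = 0.00261) and Mov10 (adjusted p = 0.0265) passed. Ifit1, Ifit2 and the kinase gene Eif2ak2 differed by 0.24, 0.20 and 0.25 and passed in neither. Of the 22 antiviral effector genes measured here, 4 were higher, none was lower and 21 had the higher mean in high Mx2 livers, with a median difference of 0.26, beside 0.155% of all genes called higher and 53.0% with the higher mean.

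The ISG15 system held the transcript with the smallest p. Isg15, the ubiquitin-like protein itself, read 7.56 to 8.43 with a median of 8.13 in high Mx2 livers, against 6.73 to 7.40 with a median of 7.06 in low Mx2 livers. The ranges did not overlap, and the difference of 1.02 ± 0.08 (SE) log2 units had the smallest adjusted p on the array outside Mx2 (limma adjusted p = 3.14e-08). Usp18, the protease that removes ISG15 and also damps signalling at the interferon receptor, read 7.92 to 9.13 in high Mx2 livers and 6.61 to 7.83 in low Mx2 livers, again without overlap. It was 1.25 ± 0.14 (SE) higher, or 2.38-fold (adjusted p = 3.28e-05). Herc6, which acts as the ISG15 ligase in mouse, was 0.69 higher (adjusted p = 0.0041), and Ube2l6, the conjugating enzyme, was 0.35 higher (adjusted p = 0.0329). The Ube2l6 call was lost when single livers were left out, with an adjusted p of up to 0.082. Uba7, the activating enzyme, differed by 0.14, and the receptor brakes Socs1 and Socs3 differed by 0.09 and -0.01, none of them past the threshold. On this list 4 of 9 measured genes were higher, none was lower and 7 had the higher mean in high Mx2 livers, beside 0.155% of all genes called higher and 53.0% with the higher mean.

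Over all 31040 probe sets, 5 (0.0161%) had all 12 high Mx2 livers above all 12 low Mx2 livers, and none had all of them below. They were the probe sets of Mx1, Irf7, Isg15 and Usp18 and 1 with no symbol.

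**Figure D2:**
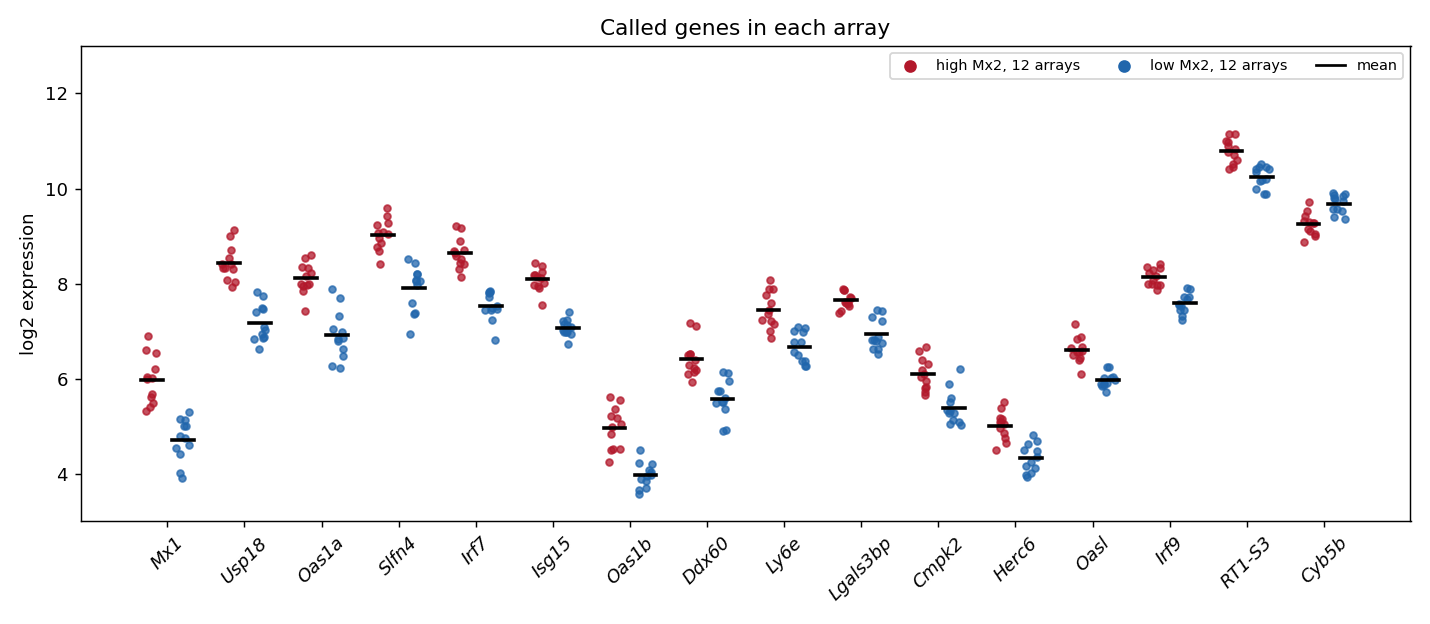
Log2 expression of the 15 genes with the largest higher difference and of Cyb5b, the 1 gene called lower, in each of the 12 high Mx2 livers (red) and 12 low Mx2 livers (blue), with a black line at each mean. Mx1, Usp18, Irf7 and Isg15 show no overlap between the sides, and Cyb5b is the only one of the 16 with the lower mean in high Mx2 livers.

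Further genes from the interferon-induced list that were higher included Ddx60, a helicase-like cofactor of RNA sensing, by 0.84 log2 units (limma adjusted p = 0.00989). Lgals3bp, a secreted glycoprotein that binds galectin-3, was 0.71 higher (adjusted p = 0.000549), with 7.38 to 7.90 in high Mx2 livers and 6.52 to 7.45 in low Mx2 livers. Cmpk2, a mitochondrial nucleotide kinase, was 0.71 higher on its brighter probe set (adjusted p = 0.0179) and differed by 0.21 on a dimmer one that did not pass. Apol9a, of the apolipoprotein L family, was 0.54 higher (adjusted p = 0.00381). Ifi27, a mitochondrial interferon-induced protein given outside the naming rule because it passed, read 12.95 in high and 12.60 in low Mx2 livers, and its difference of 0.36 passed with an adjusted p of 0.000755. On this list of 33 measured genes, 5 were higher, none was lower and 30 had the higher mean in high Mx2 livers, with a median of 0.25, beside the same 0.155% and 53.0% over all genes. The class I histocompatibility gene RT1-S3 was 0.55 higher (adjusted p = 0.0076), and 3 further probe sets for it gave 0.62, 0.60 and 0.59, of which the last did not pass (adjusted p = 0.107). RT1 genes are near copies of one another, so the probe sets may share signal.

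The genes called higher outside those lists were Slfn4, Ly6e, Znfx1, Chi3l1 and Plvap. Slfn4, a schlafen family gene known from mouse myeloid cells, read 8.41 to 9.58 with a median of 9.05 in high Mx2 livers, against 6.93 to 8.52 with a median of 8.06 in low Mx2 livers. Its ranges overlapped slightly and it was 1.13 ± 0.16 (SE) higher (limma adjusted p = 0.000514). A second, very dim Slfn4 probe set differed by 0.08. Ly6e, a lipid-anchored surface protein that affects virus entry, was 0.79 higher (adjusted p = 0.0076), and its second probe set differed by 0.42 without passing. The last 3 fall outside the naming rule and are given because they passed: Znfx1, a helicase that senses RNA at mitochondria, by 0.51 (adjusted p = 0.0041), Chi3l1, a secreted chitinase-like protein, by 0.37 (adjusted p = 0.019), and Plvap, a protein of endothelial diaphragms, by 0.30 (adjusted p = 0.0173). One probe set of the ubiquitin ligase Rnf213, likewise outside the rule, also passed, with a difference of 0.35 (adjusted p = 0.0123), while the brighter Rnf213 probe set gave 0.29 (adjusted p = 0.187).

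The single named gene that was lower was Cyb5b, the outer mitochondrial membrane form of cytochrome b5. It read 8.87 to 9.71 with a median of 9.27 in high Mx2 livers and 9.36 to 9.90 with a median of 9.75 in low Mx2 livers, and the ranges overlapped. Its difference was -0.44 ± 0.09 (SE; limma adjusted p = 0.0275), a second Cyb5b probe set gave -0.11 and did not pass, and the call was lost without some single livers (adjusted p of up to 0.0682). The next genes by p that had the lower mean in high Mx2 livers did not pass. They included Reep6, an endoplasmic reticulum membrane protein, at -0.49 (adjusted p = 0.107), the steroid dehydrogenase Hsd17b6 at -0.57 (adjusted p = 0.187) and the mitochondrial sulfur dioxygenase Ethe1 at -0.52 (adjusted p = 0.190). The others were the mitochondrial ribosomal protein gene Mrpl51 at -0.18, Htatip2 at -0.30, the acyltransferase-like gene Glyatl2 at -0.48, the fatty acid activating enzyme gene Acsl3 at -0.45, Dglucy at -0.36 and the lipid antigen presenting molecule gene Cd1d1 at -0.25, with adjusted p between 0.190 and 0.453 in limma.

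Promoter sequences are shown because the genes that moved together share a known response element in a part of the cases. RefSeq promoters in the GRCr8 build, running from 250 bases before to 50 bases after each gene's start, were found for 19 of the 23 symbols called higher. The motif searched, a GAAA followed by any 2 bases and another GAAA, is the core of the interferon-stimulated response element. It occurred on either strand in 8 of these 19 (42.1%) and in 1034 of all 27457 promoters (3.77%), with overlapping copies counted once per promoter. A match is a description of letters and not evidence of binding. Of the 8, a window of 120 bases is printed for Irf7 (chr1:205800028-205800147, minus strand), Oas1a (chr12:41330373-41330492, plus strand), Oas1b (chr12:41395844-41395963, minus strand), Ddx60 (chr16:33208831-33208950, minus strand), Lgals3bp (chr10:104127834-104127953, minus strand) and Ifi27 (chr6:128355130-128355249, plus strand), 5′ to 3′ along the gene, with the repeat or its reverse complement in capitals.
Irf7: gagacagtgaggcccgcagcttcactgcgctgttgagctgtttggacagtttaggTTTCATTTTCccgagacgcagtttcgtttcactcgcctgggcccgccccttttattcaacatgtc
Oas1a: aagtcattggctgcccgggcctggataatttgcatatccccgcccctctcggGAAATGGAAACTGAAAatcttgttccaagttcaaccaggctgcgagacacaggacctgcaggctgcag
Oas1b: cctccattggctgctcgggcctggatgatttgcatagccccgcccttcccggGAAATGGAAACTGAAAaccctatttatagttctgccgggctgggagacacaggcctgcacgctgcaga
Ddx60: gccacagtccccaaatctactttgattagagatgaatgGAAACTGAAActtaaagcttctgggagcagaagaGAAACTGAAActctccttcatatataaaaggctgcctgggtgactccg
Lgals3bp: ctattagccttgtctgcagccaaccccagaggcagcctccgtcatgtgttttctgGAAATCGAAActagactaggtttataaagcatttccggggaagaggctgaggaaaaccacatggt
Ifi27: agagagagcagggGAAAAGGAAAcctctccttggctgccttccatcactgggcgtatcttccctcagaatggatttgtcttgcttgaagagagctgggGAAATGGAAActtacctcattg

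Oas1a and Oas1b carried the same 16 capital letters, a pair of overlapping repeats, beginning 41 bases before the start of Oas1a and 59 bases before that of Oas1b. Ddx60 carried a pair of separate repeats, the farther one 73 bases before its start, and Lgals3bp a single one at 50 bases before. The repeats of Ifi27 lay farther out, with the first base of the farther one 169 bases before the start. Apol9a and RT1-S3 also held a match. Mx2, Usp18, Isg15, Ly6e and Dhx58 have no entry in the promoter table used.

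The 22 livers of intermediate Mx2 took no part in the choice of extremes, and the same transcripts were followed in them. Each probe set was fitted on the Mx2 level of these livers, which spans only 6.68 to 7.55. No slope passed the threshold (limma, 0 of 31040, smallest adjusted p = 0.158), and 1733 slopes had an unadjusted p under 0.05. All 28 probe sets called higher in the extremes had a positive slope there, beside 51.2% of all probe sets, and 19 of the 28 (67.9%) were positive with an unadjusted p under 0.05, beside 2.88% of all. Both probe sets called lower had a negative slope with an unadjusted p under 0.05, beside 2.7% of all. The median slope was 0.48 log2 units per unit of Mx2 over the 28 and 0.00 over all probe sets. Mx1 had a slope of 1.12, Usp18 of 1.14, Slfn4 of 1.08, Isg15 of 0.93, Irf7 of 0.78 and Oas1a of 0.48.

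The 10 genes with the smallest slope p in these 22 livers included Herc6 (0.91), Usp18, Irf7 and Mx1, all called in the extremes. The others were the guanylate-binding proteins Gbp7 (1.50) and Gbp4 (0.54), the myelin-associated nucleotide phosphodiesterase gene Cnp (0.51), the receptor gene Tnfrsf14 (0.56), the cap-binding protein gene Eif4e3 (0.60) and, with a negative slope of -0.45, the respiratory complex I subunit gene Ndufa12. None of these 6 passed between the extremes, where Gbp7 differed by 0.46 (limma adjusted p = 0.805) and Ndufa12 by 0.01 (adjusted p = 0.988).

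**Figure D3:**
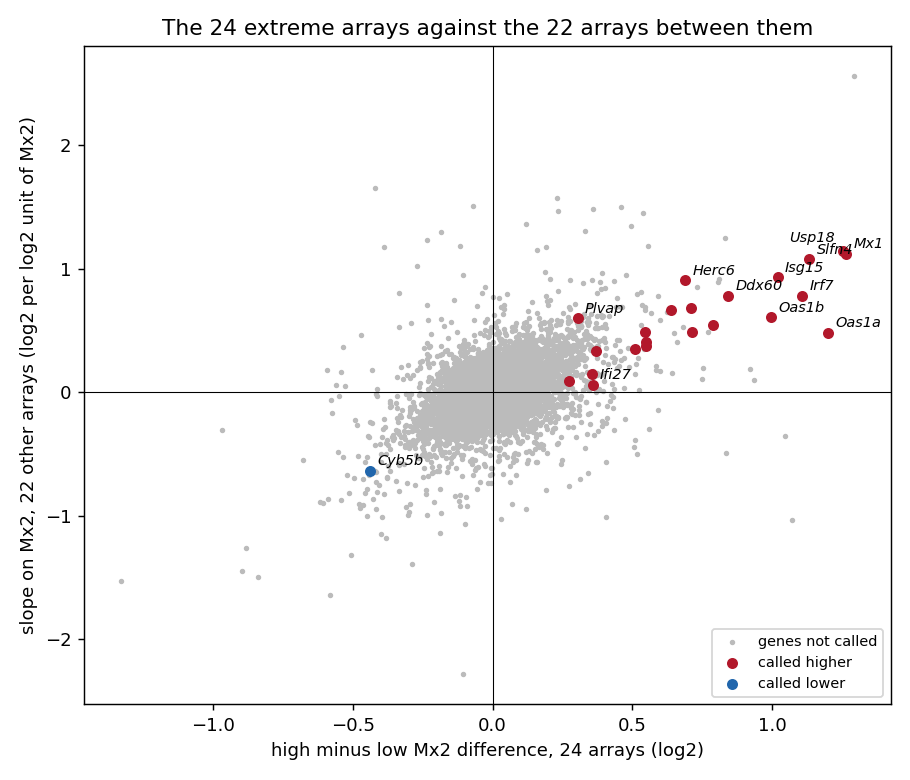
Each point is a gene: the x axis gives the log2 difference between the 12 high and 12 low Mx2 livers, and the y axis the slope of the gene on Mx2 (log2 per log2 unit) in the 22 intermediate livers. The 22 genes called higher (red) all lie at positive slopes, with Mx1, Usp18 and Slfn4 above 1, and Cyb5b (blue) lies at a negative slope.

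Glucose tolerance was spread over both sides, so the comparison was repeated in each glucose class. All 28 higher probe sets had the higher mean in high Mx2 livers within the glucose-intolerant rats and within the glucose-normal rats, and both lower ones had the lower mean in each. Irf7 differed by 0.86 among glucose-intolerant and by 1.35 among glucose-normal livers, Mx1 by 1.14 and 1.44, Isg15 by 1.05 and 0.98, and Usp18 by 0.99 and 1.51, in the same order. The interaction of Mx2 side with glucose class passed for no probe set (limma, 0 of 31040, smallest adjusted p = 0.114), while 1038 had an unadjusted p under 0.05. With 6 high and 5 low Mx2 livers the glucose-intolerant rats alone gave 3 higher calls, and with 6 and 7 the glucose-normal rats alone gave 10. In the comparison of all 23 glucose-intolerant with all 23 glucose-normal livers, the smallest adjusted p among the 28 higher probe sets was 0.568.

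The genes beside Mx2 on chromosome 11 were read for the same difference. Of the 10 measured named genes on each side, 1 of 20 passed, beside 0.155% of all genes called higher, and it was Mx1. The other 19 differed by between -0.16 and 0.13 log2 units, with a smallest limma adjusted p of 0.891. Fam3b, which lies between Mx1 and Mx2 in the annotation, differed by 0.01, the serine protease gene Tmprss2 by -0.01 and the protease gene Bace2 by 0.13. These 3 were named after their values were seen.

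The inbred livers, which the ranking did not use, spanned a wider range of Mx2 than the HS livers. WKY read 8.65 and 8.42 on the ranking probe set, BUF 6.66 and 7.38, M520 6.68 and 6.78, F344 6.56 and 6.75, BN 5.68 and 6.21, and ACI 5.08 and 5.48. WKY thus lay around the top of the HS range. Both ACI livers and the BN liver at 5.68 lay below its lower end of 5.91. On the second probe set WKY read 9.11 and 8.99 and ACI 5.81 and 5.60, while BUF, M520, F344 and BN lay between 3.06 and 3.83. ACI, the lowest strain on the ranking probe set, was therefore among the high readers on the second.

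The WKY livers also read highest for most of the genes that followed Mx2 in HS rats. Both WKY livers lay above the other 10 inbred livers in 18 of the 22 genes called higher (81.8%), beside 647 of all 14216 genes (4.55%). Isg15 was 8.79 and 8.61 in WKY and 6.55 to 7.99 in the other strains. Irf7 was 9.03 and 8.92 in WKY and 6.58 to 8.22 in the others, and Slfn4 was 10.07 and 9.99 against 7.30 to 8.65. Mx1 was 6.73 and 6.50 in WKY and 4.26 to 5.42 in the others. The genes called higher that did not follow this order were Oas1b, Chi3l1, Plvap and Dhx58. Oas1b read 3.27 and 3.63 in WKY and 3.62 to 4.52 in the other strains, and 1 WKY liver was the lowest of the 12. With 2 livers a strain no test was made.

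**Figure D4:**
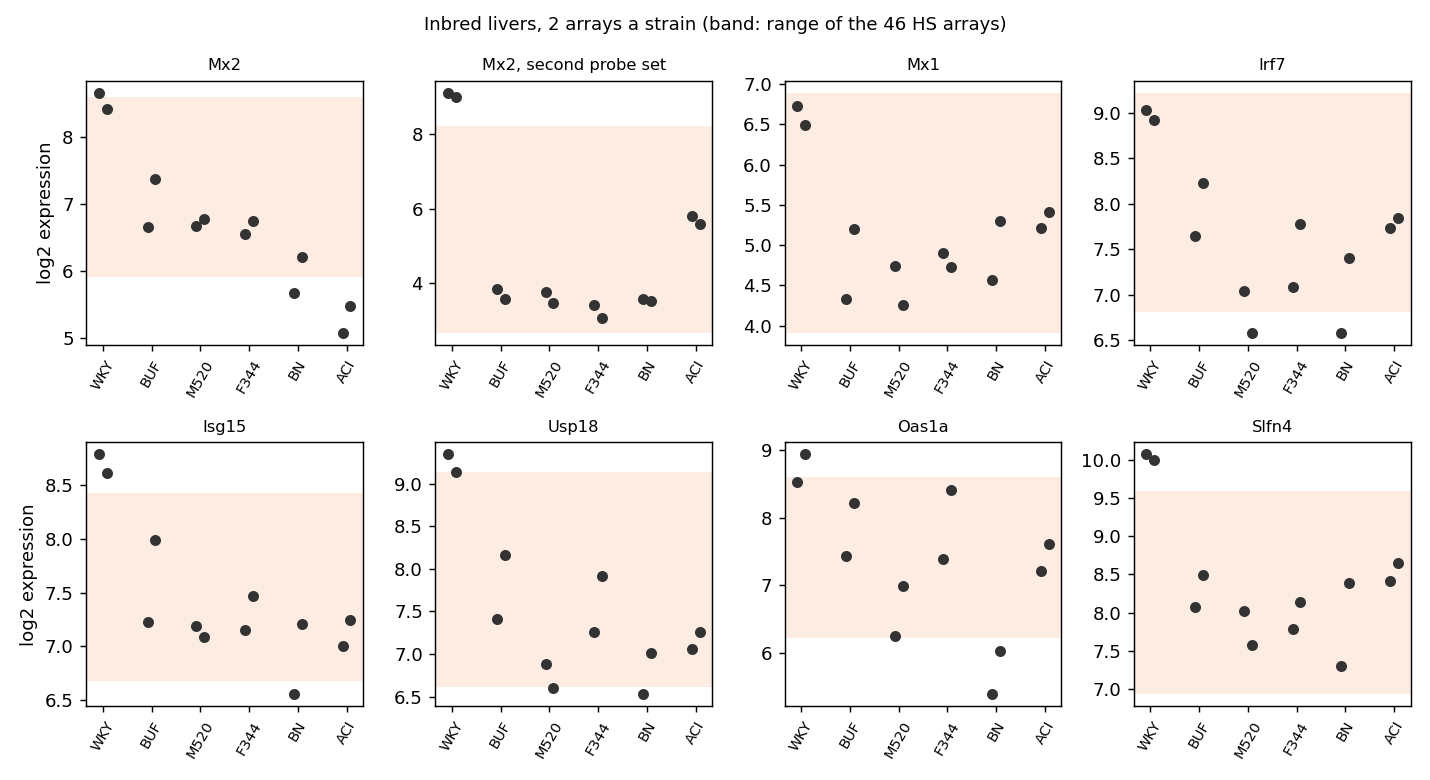
Log2 expression in the 2 livers of each inbred strain for both Mx2 probe sets and 6 genes called higher in high Mx2 HS livers; the shaded band is the range of the 46 HS livers. Both WKY livers lie above the band on the second Mx2 probe set and for Isg15, Usp18 and Slfn4. Both ACI livers and the BN liver at 5.68 fall below the band on the ranking Mx2 probe set, and neither strain does on the second.

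Other gene groups were read from lists of pathway and cell type genes. The interferon-inducible GTPases (5 measured) had no call, 4 with the higher mean in high Mx2 livers and a median of 0.31. Igtp, of the immunity-related GTPases, differed by 0.45 (limma adjusted p = 0.634). The immunoproteasome and peptide transport list had no call among 14 genes, 13 with the higher mean and a median of 0.17, and its member of smallest p was the peptide-loading chaperone gene Tapbp at 0.13 (adjusted p = 0.698). The class I list had 1 higher call among 12 genes, RT1-S3, with 7 having the higher mean. The class II list had no call among 8 genes, all with the higher mean and a median of 0.28. RT1-Ba, a class II alpha chain, differed by 0.59 (adjusted p = 0.770). Over the 7 interferon and class I lists together, 112 distinct genes were measured, 17 were higher and 97 had the higher mean in high Mx2 livers. Among all genes, 0.155% were called higher and 53.0% had the higher mean.

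**Figure D5:**
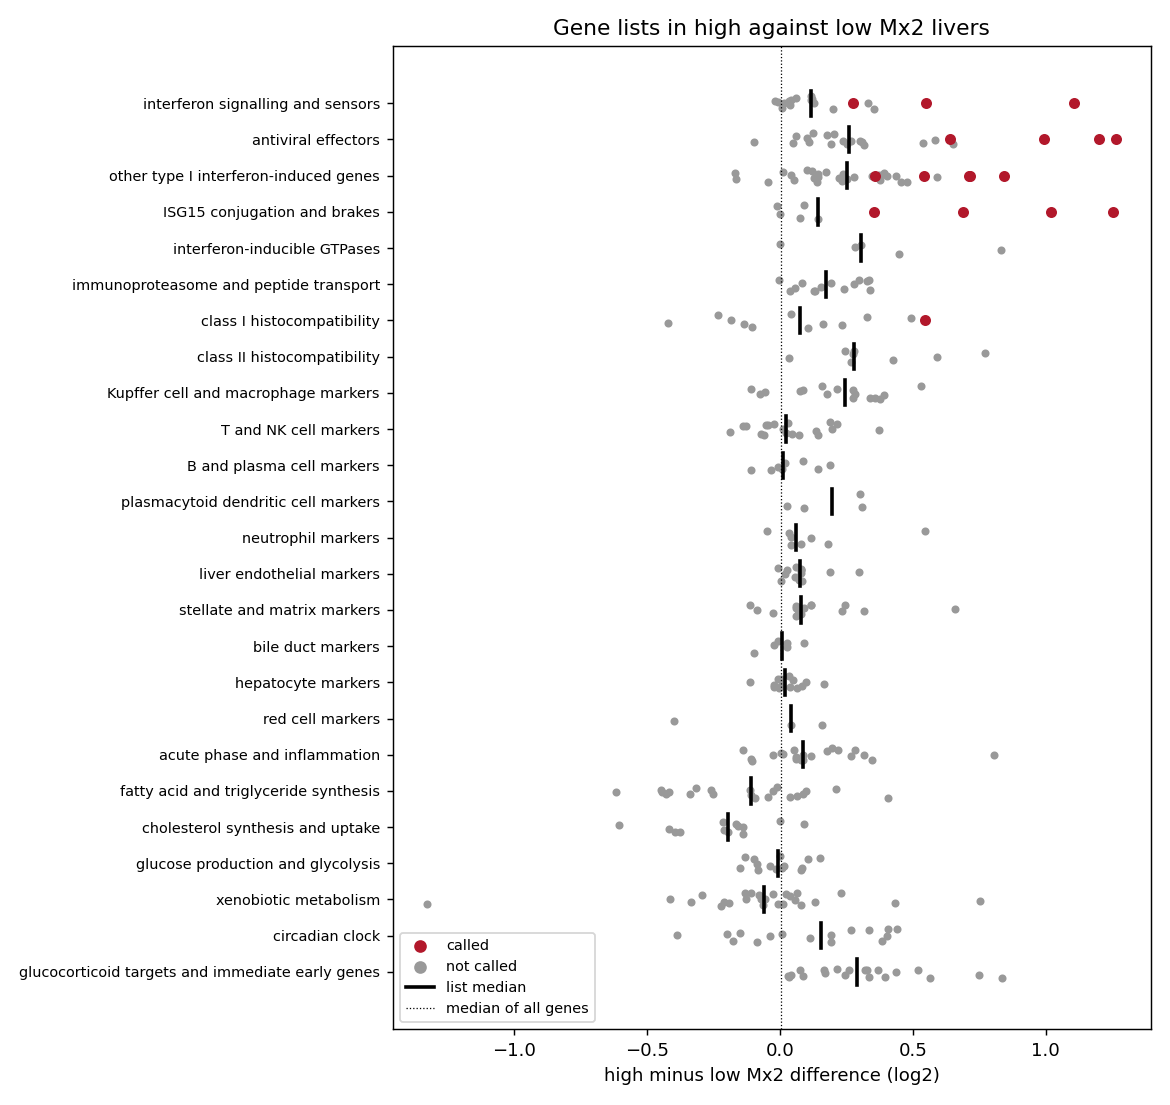
Difference between high and low Mx2 livers (log2) for each measured member of 25 gene lists, 1 list per line; red points passed the test, grey points did not, black bars are list medians and the dotted line is the median of all genes. Red points occur only in 4 interferon lists and the class I list.

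No member of the cell marker lists passed, although macrophage markers mostly had the higher mean in high Mx2 livers. The Kupffer cell and macrophage list had no call among 16 genes, 13 with the higher mean and a median difference of 0.24. In the 22 intermediate livers 15 of the 16 had a positive slope on Mx2, with a median of 0.38, beside 51.2% of all probe sets and a median of 0.00. Its summed level, as the mean log2 value per liver, ran from 8.21 to 9.06 in high Mx2 livers and from 7.72 to 8.83 in low Mx2 livers. Aif1, a macrophage calcium-binding protein gene, differed by 0.53 (limma adjusted p = 0.529), and passed with Mx2 as a continuous value over all 46 livers (adjusted p = 0.0389). With this level as a covariate, an alternative chosen after seeing the data, 20 probe sets were higher and 1 was lower, and 18 of the 28 were among the 20. The covariate was measured in the same livers and mostly rose with Mx2, so kept or lost calls cannot show the part of resident macrophages. That part was not tested.

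The liver endothelial list had 13 of 14 members with the higher mean and a median of 0.08, with levels of 7.41 to 8.10 in high and 7.13 to 8.02 in low Mx2 livers and no call. Plvap, the endothelial diaphragm gene called higher above, is not on this list. The T and NK cell list had 11 of 19 members with the higher mean and a median of 0.02, and the B and plasma cell list 5 of 8 with a median of 0.01. In the intermediate livers 15 of the 19 and 6 of the 8 had a positive slope on Mx2. The plasmacytoid dendritic cell list held 4 measured genes, all with the higher mean and a median of 0.19, and its member of smallest p, the transcription factor gene Irf8, differed by 0.30 (limma adjusted p = 0.853). Of these 4 genes only 1 had a positive slope in the intermediate livers, where the median slope was -0.03. Neutrophil (8 genes), stellate and matrix (15), bile duct (6) and red cell (3) markers had medians of 0.06, 0.08, 0.01 and 0.04 with no call. In the intermediate livers 3 of the 8 neutrophil and 0 of the 3 red cell markers had a positive slope, with median slopes of -0.02 and -0.56. The hepatocyte list had no call among 14 genes and a median of 0.02, and Pck1, the gluconeogenic enzyme gene, read 13.63 in high and 13.55 in low Mx2 livers. The mean log2 level of the hepatocyte list per liver was 13.41 to 13.52 in high and 13.38 to 13.54 in low Mx2 livers, while the T and NK cell list stood at 4.60 to 4.96 and 4.49 to 5.09.

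The glucocorticoid target and immediate early gene list lay to 1 side without a call. All 20 measured members had the higher mean in high Mx2 livers, with a median of 0.29, and none passed. Levels ran from 7.34 to 8.07 in high Mx2 livers and from 6.89 to 7.74 in low Mx2 livers. Nr4a1, an immediate early nuclear receptor gene, differed by 0.26 (limma adjusted p = 0.360). In the 22 intermediate livers only 12 of the 20 had a positive slope on Mx2. With this level as a covariate, also chosen after seeing the data, 12 probe sets were higher, all among the 28, and none was lower. The covariate was measured in the same livers and its members all had the higher mean in high Mx2 livers. Kept or lost calls therefore cannot show the part of these genes, which was not tested.

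Acute phase and inflammation genes had no call among 21, with 17 having the higher mean and a median of 0.09. The chemokine gene Cxcl1 read 6.23 ± 1.05 in high and 5.42 ± 0.25 in low Mx2 livers (SD, n = 12 each; limma adjusted p = 0.755), with far more spread on the high side. Circadian clock genes had no call among 16 and a median of 0.15, and Per1 differed by 0.33 (adjusted p = 0.876).

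No gene of the lipid synthesis lists passed in either direction. The cholesterol synthesis and uptake list had 1 of 13 members with the higher mean in high Mx2 livers and a median of -0.20, beside 53.0% and 0.01 over all genes, and none of the 13 had a positive slope in the intermediate livers. Idi1, the isopentenyl diphosphate isomerase gene, read 8.92 ± 0.73 in high and 9.53 ± 0.62 in low Mx2 livers (limma adjusted p = 0.841). The fatty acid and triglyceride synthesis list had 6 of 21 members with the higher mean and a median of -0.11, and 3 of 21 had a positive slope in the intermediate livers. Fasn, the fatty acid synthase gene, read 8.16 ± 0.53 in high and 8.78 ± 0.63 in low Mx2 livers (adjusted p = 0.755). Xenobiotic metabolism genes had 10 of 26 with the higher mean and a median of -0.06. Its member of smallest p, the glutathione transferase gene Gsta3, read 7.47 ± 0.995 in high and 8.79 ± 1.14 in low Mx2 livers, a difference of -1.33 that did not pass (adjusted p = 0.574). Glucose production and glycolysis genes had 6 of 14 with the higher mean and a median of -0.01.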

How the data were processed

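Liver RNA from 46 HS and 12 inbred rats was measured on 58 arrays. Expression was deposited by the authors as log2 values for 31042 probe sets, with array medians between 5.33 and 5.39. Partek is named per the submitters' processing notes, and the sources used here do not give the normalization. Probe sets were named through the platform annotation: 20826 carried 1 symbol, 436 several and 9780 none, giving 14217 genes, each represented by its probe set of highest mean over all arrays. HS arrays were ranked by the Mx2 value, and the 12 highest were compared with the 12 lowest on the values as deposited with limma 3.58.1 in R 4.3.3 (lmFit and eBayes, two-sided, Benjamini-Hochberg adjustment over all probe sets, threshold 0.05), leaving both Mx2 probe sets out of the counts. A call is an adjusted p under 0.05. The script was tested on simulated data. Glucose classes were taken from the sample titles. Members and gene lists were chosen with earlier results of these data known. Genes named were the 15 called genes with the largest higher difference, the 10 lower genes (by p where not called), up to 4 called members of each list or the member of smallest p where none was called, any members of the signalling, antiviral and ISG15 lists, and the 10 genes of smallest slope p in the intermediate livers. Genes named outside this rule are marked as such. The labels do not say which rats shared a cage or litter, so p-values assume independent livers. Each liver has 1 array, and precision rests on how many arrays there are. Alternatives covered the number of livers per side, the Mx2 probe set, covariates, normalization, filters and leaving out each liver.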

Additional observations from a re-analysis of the deposited data

How the results depend on the processing

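The main comparison called 28 probe sets higher and 2 lower. Direction was kept by all 23 called genes under every alternative in which they were tested. Most alternatives refit the livers that gave the calls, so a kept direction there is no separate support. Counts of calls (higher and lower) were 15 and 0 with 8 livers a side, 48 and 22 with 23 a side, 72 and 17 with Mx2 as a continuous value, 50 and 43 with adjustment for the first residual component, 3 and 0 in glucose-intolerant rats alone, 10 and 0 in glucose-normal rats alone, 12 and 0 with the glucocorticoid and immediate early level as a covariate, 20 and 1 with the Kupffer cell and macrophage level, 31 and 4 with array weights, and 22 and 1 with 1 probe set per gene. Ranking by the second Mx2 probe set gave 1 higher call and 0 lower, with 1384 probe sets at an unadjusted p under 0.05. That call was Clybl, named after its value was seen, and none of the 28 passed, although all 28 had the higher mean, by 0.15 to 0.69. Their median difference was 0.32 there and 0.61 in the main ranking. The 12 lowest livers by the second probe set included HS16, HS23, HS31 and HS43, which are high Mx2 livers in the main ranking. The sides of the 2 rankings are therefore partly opposed. The cause of the changes in calls between settings was not tested, beyond the smaller number of livers in some settings. Leaving out 1 liver gave 26 to 31 higher and 1 to 3 lower calls. Of the 28 higher calls 26 held each time, and the call for Cyb5b was lost when any 1 of 11 livers was left out. Of 31040 probe sets, those without overlap between the sides numbered 13 higher and 2 lower with 8 livers a side. There were 0 with 23 a side or by the second probe set. Fewer livers a side separate more easily by chance, and how many would do so was not computed. Slopes in the 30 livers left out by 8 against 8 gave 5 higher and 1 lower call. No paired analysis was possible because the numbers in the HS titles are unique across the rats and pair no high with a low Mx2 liver. Low signal limits what dim probe sets can show, and 24 of the 28 higher and both lower calls were found with the 15553 brighter probe sets alone.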
